A study of Caenorhabditis elegans with 6 samples.

Results

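The genes described here serve the licensing, start and course of DNA replication in *Caenorhabditis elegans*. They are the 6 subunits of the MCM helicase (*mcm-2* to *mcm-7*), the loading factors *cdc-6* and *cdt-1*, the sliding clamp *pcn-1* and the large ribonucleotide reductase subunit *rnr-1*. They were picked by symbol, and each of the 10 symbols matched 1 row of the 20392 in the count table. These genes and the gene lists used below were chosen with earlier results of these data known. Comparisons of them with all tested genes are therefore description only. Total RNA had been sequenced from first-stage (L1) larvae in 6 libraries. The 3 mutant libraries came from strain XA6227, as larvae of mothers homozygous for a mutation in *mrg-1* (genotype *mrg-1* -/-), which encodes a chromatin protein with a chromodomain. The 3 wild-type libraries came from strain N2. The labels do not name the mutant allele. Mutant mothers had lost the balancer chromosome and were picked by hand, between 2000 and 4000 of them, whereas N2 mothers were washed from plates, so picking and genotype cannot be told apart. In both groups the eggs came from hypochlorite treatment, the larvae hatched without food over 18 h, and they were then fed for 2 h 30 min.

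A replication origin is first bound by the origin recognition complex. CDC-6 and CDT-1 then load the ring-shaped MCM helicase onto the DNA, which licenses the origin for 1 round of replication, and the helicase unwinds the DNA once kinases and further factors activate it. The clamp, known as PCNA, holds the polymerases on their template, and ribonucleotide reductase supplies the deoxynucleotides. In *C. elegans*, larvae that hatch without food arrest, and feeding restarts the divisions of the post-embryonic cell lineages. The gene *mcm-4* is also known as *lin-6*, from mutants in which post-embryonic DNA synthesis fails.

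Library totals ran from 20917771 to 24123189 counts in the mutant and from 19238422 to 39063186 in the wild type. Mitochondrially encoded genes took 8.42% to 12.43% of the counts in mutant libraries, against 10.64%, 23.12% and 45.56% in wild-type libraries 1, 2 and 3. The mutated gene stood at 2.11, 5.61 and 5.15 CPM (counts scaled to a common library size with TMM factors) in mutant libraries 1, 2 and 3, and at 30.2, 15.9 and 18.8 CPM in the wild-type ones. The edgeR quasi-likelihood test put its log2 fold change, mutant over wild type, at -2.33 (SE 0.53, adjusted p = 0.0413). That call was lost without any 1 mutant library (adjusted p = 0.181, 0.138 and 0.16) and without wild-type library 1 or 2 (0.06 and 0.0735), with library totals (0.105) and in limma on the deposited log2 values (0.0761).

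All 10 genes had a lower mean in *mrg-1* mutant larvae than in wild-type larvae, and *mcm-7* alone passed the test. Its transcript fell 2.91-fold, and the fitted levels of the other 9 were 1.41-fold to 2.12-fold lower without reaching an adjusted p of 0.05. The summed level of the 10 genes was 631.8, 746.1 and 578.0 CPM in the mutant libraries, against 1073.2, 1268.7 and 1413.5 CPM in the wild-type libraries. Genes called lower made up 0.847% of the 13460 tested, so the 1 of 10 called here is a count too small to set against that share. Of the 10, 2 were called lower in DESeq2, against 4.71% of the 14595 genes given an adjusted p there. In edgeR 3 were called lower without wild-type library 1 (3.4% of 14244 tested) and 0 with library totals (0.0817% of 13460). The median log2 fold change of the 10 genes was -0.85, against -0.03 for all tested genes. Every one of the 10 passed the filter on low counts.

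In 7 of the 10 genes (the 6 MCM genes and *pcn-1*) the highest mutant library lay below the lowest wild-type library, as it did for 12% of all tested genes. With library totals in place of TMM factors, 2 of the 10, *mcm-3* and *mcm-7*, kept that gap, against 5.81% of tested genes. With totals of nuclear genes alone the same 7 kept it, against 11.5%. At an unadjusted p under 0.05, 7 of the 10 were lower in edgeR (*mcm-2*, *mcm-3*, *mcm-4*, *mcm-5*, *mcm-7*, *cdc-6* and *pcn-1*), against 10.2% of tested genes. That count was 1 with library totals, 1 in limma on the deposited log2 values and 8 in DESeq2. It was 2, 6 and 2 without mutant library 1, 2 and 3, and 7, 8 and 4 without wild-type library 1, 2 and 3. The share of all tested genes at that p was not counted under these settings, so these counts cannot be read as a result about the 10 genes. The settings also differ in how many genes pass at an adjusted p under 0.05. Over all genes 11 were called lower with library totals and 688 in DESeq2. In whole larvae, fewer cells that express a gene and less of its RNA per cell cannot be told apart.

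**Figure D1:**
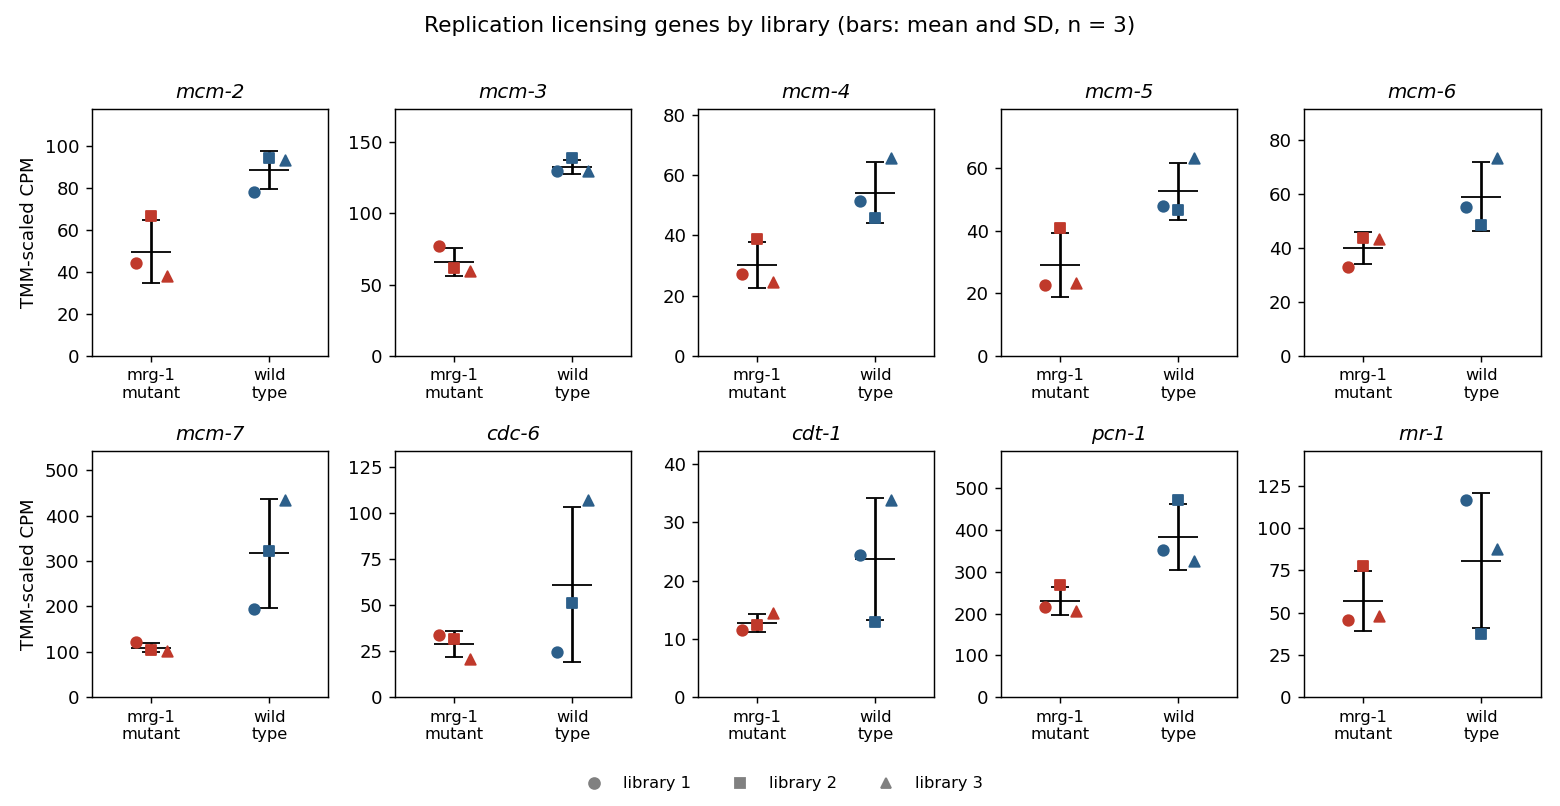
TMM-scaled CPM (y axis) of each of the 10 genes in the 3 mutant libraries (red, left) and the 3 wild-type libraries (blue, right), with the mean and SD. The mutant points of the 6 MCM genes and *pcn-1* lie below all wild-type points, while those of *cdc-6*, *cdt-1* and *rnr-1* overlap them.

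The MCM helicase is a ring of 6 related ATPases, 1 from each gene, so each complex needs every subunit once. The gene *mcm-7* lies on the plus strand of chromosome V, from 4347166 to 4349768 in the WBcel235 annotation, with 4 exons. Its counts were 3096, 2536 and 2691 in mutant libraries 1, 2 and 3, against 4040, 8772 and 11898 in the wild-type libraries. Scaled, these were 120.7, 104.6 and 101.1 CPM in the mutant, against 194.1, 321.7 and 434.3 CPM in the wild type. The mutant libraries lay close together, and the wild-type libraries differed from each other by more than the mutant mean. The mean was 108.8 ± 10.5 CPM in the mutant and 316.7 ± 120.2 CPM in the wild type (SD, n = 3 each), a log2 fold change of -1.54 with a 95% interval of -2.23 to -0.86 (SE 0.32, edgeR adjusted p = 0.0299).

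The size of the *mcm-7* difference varied with the wild-type library it was set against. The mutant mean was 0.84 lower on the log2 scale than wild-type library 1 and 1.78 lower than the mean of libraries 2 and 3. The wild-type level followed the order of the mitochondrial share given above, and the part of that share in the result was not tested. Without wild-type library 3 the fitted log2 fold change was -1.23 (edgeR adjusted p = 0.0471), and without mitochondrial genes it was -1.57 (adjusted p = 0.0283). The call was lost without any 1 mutant library (edgeR adjusted p = 0.149, 0.146 and 0.162) and without wild-type library 2 (0.0795). With wild-type library 1 as the only wild-type library the log2 fold change was -0.82 (adjusted p = 0.186).

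The other MCM genes differed less from wild type and varied less among wild-type libraries. *mcm-3*, on the minus strand of chromosome V (15056719 to 15059599), had 76.8, 61.3 and 59.2 CPM in mutant libraries 1, 2 and 3, against 129.5, 138.6 and 129.6 CPM in the wild type. Its wild-type libraries were the most alike of any of the 10 genes, with an SD of 3.92% of the mean, and the groups were well apart. The log2 fold change was -1.01 (SE 0.27, 95% interval -1.61 to -0.42), and the edgeR adjusted p was 0.0702. It passed in DESeq2 (adjusted p = 0.0106) and in edgeR without wild-type library 1 (0.0497).

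*mcm-2*, on the minus strand of chromosome II (12001509 to 12006625), had 44.4, 66.6 and 38.2 CPM in the mutant libraries, against 78.3, 94.3 and 93.4 CPM in the wild type. Mutant library 2 was the highest of its group and came nearest to wild-type library 1. The log2 fold change was -0.83 (SE 0.32, 95% interval -1.52 to -0.15, edgeR adjusted p = 0.17).

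*mcm-4*, on the minus strand of chromosome I (2318291 to 2321817), had 27.02, 38.9 and 24.4 CPM in the mutant libraries, against 51.3, 45.8 and 65.6 CPM in the wild type. *mcm-5* (chromosome III, 4288264 to 4291266, minus strand) had 22.5, 40.8 and 23.4 CPM in the mutant libraries, against 47.8, 46.6 and 63.0 CPM in the wild type. In both genes mutant library 2 stood above the other 2 mutant libraries and wild-type library 3 above the other 2 wild-type libraries. Their log2 fold changes were -0.85 (95% interval -1.59 to -0.11) and -0.86 (-1.64 to -0.09), with edgeR adjusted p values of 0.193 and 0.207.

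*mcm-6*, on the plus strand of chromosome III (9794367 to 9798644), was the MCM gene nearest to wild type, with 32.9, 43.5 and 43.3 CPM in the mutant libraries, against 55.2, 48.3 and 73.2 CPM in the wild type. The gap between the highest mutant library and the lowest wild-type library was narrow. Its log2 fold change of -0.56 had a 95% interval of -1.26 to 0.13, which includes no change (edgeR adjusted p = 0.358).

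**Figure D2:**
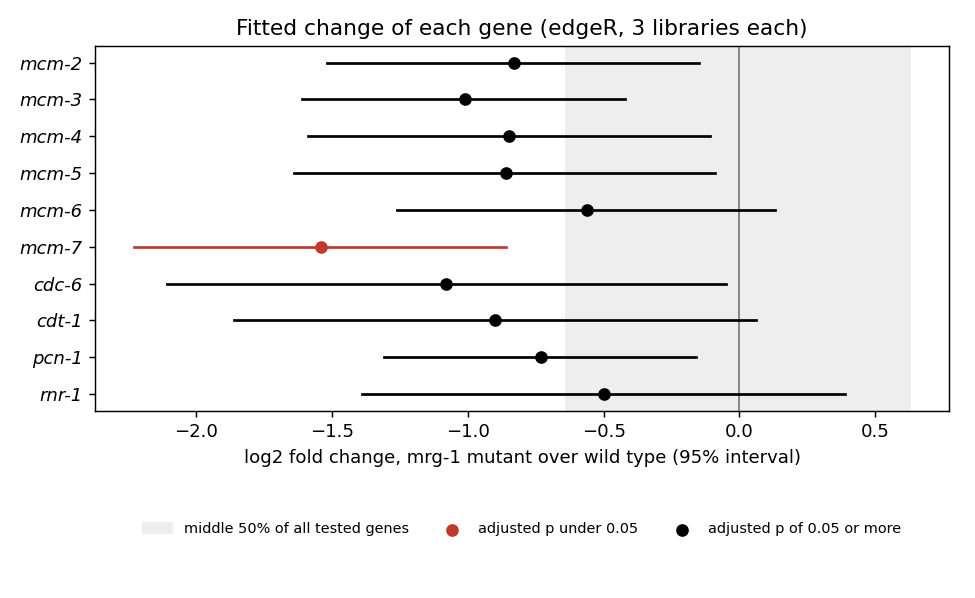
Fitted log2 fold change, mutant over wild type (x axis), with its 95% interval for each of the 10 genes, and the middle 50% of all tested genes in grey (-0.64 to 0.63). *mcm-7* (red) is the gene that passed the test, and the intervals of *mcm-6*, *cdt-1* and *rnr-1* include 0.

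Because the subunits meet in 1 complex, their make-up was also compared within each library, where scaling between libraries plays no part. Each gene's counts were divided by its deposited length and taken as a share of the 6-gene sum. *mcm-7* took 39.1%, 31.01% and 36.6% of that sum in mutant libraries 1, 2 and 3, against 36.7%, 48.3% and 52.4% in the wild type. The mean share was 35.6% ± 4.15 in the mutant and 45.8% ± 8.17 in the wild type (SD, n = 3 each). The groups overlapped, since wild-type library 1 lay within the mutant range. The difference of -10.2 percentage points gave p = 0.2 in a two-sided exact permutation test (0.6 adjusted over 6 subunits). Without wild-type library 1 the difference was -14.8 points, and without wild-type library 3 it was -6.91 points.

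The shares of a library are parts of 1 sum, so a lower share of *mcm-7* has to be made up among the other subunits. The rises below are therefore not separate from its fall. *mcm-6* was the subunit whose shares did not overlap between the groups, although its mean level was lower in the mutant (39.9 against 58.9 CPM). *mcm-6* took 10.1%, 12.3% and 14.9% of the 6-gene sum in the mutant libraries, against 9.93%, 6.9% and 8.4% in the wild type. The means were 12.4% ± 2.40 in the mutant and 8.41% ± 1.51 in the wild type, and p was 0.1 in the two-sided exact permutation test, the smallest that 3 libraries against 3 can give (0.6 adjusted over 6 subunits). The other 4 subunits had mean shares 1.09 to 2.26 percentage points higher in the mutant, with overlapping groups and exact permutation p values of 0.4 to 0.7 (0.7 adjusted). These 4 differences varied with the libraries included. That of *mcm-3* was -0.457 points without mutant library 1 and -1.05 points without wild-type library 3, and without mutant library 2 those of *mcm-2*, *mcm-4* and *mcm-5* were 0.623, 0.6 and 0.00126 points. With 3 libraries a group this test cannot reach 0.05, and no subunit was called.

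**Figure D3:**
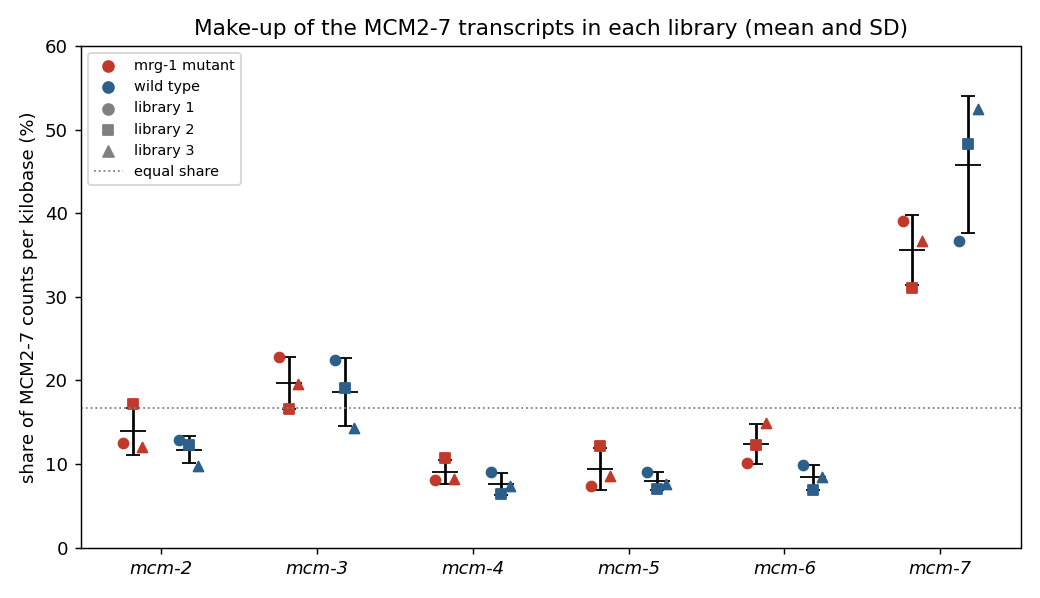
Share (y axis, %) of each MCM gene in the summed counts per kilobase of the 6 genes, by library, for the mutant (red, left of each pair) and the wild type (blue, right), with the mean and SD. *mcm-7* is the largest share in every library, and its wild-type library 1 lies among the mutant libraries.

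The loading factors varied more between wild-type libraries than the helicase genes did. *cdc-6*, the ATPase that recruits the helicase to the origin complex, lies on the minus strand of chromosome I (4268070 to 4270287). It had 34.04, 31.8 and 20.7 CPM in mutant libraries 1, 2 and 3, against 24.7, 51.3 and 107.3 CPM in the wild type. Wild-type library 1 lay below 2 of the mutant libraries, and wild-type library 3 above all others. The fit gave a log2 fold change of -1.08 (SE 0.48, 95% interval -2.11 to -0.05, edgeR adjusted p = 0.231), and it was -0.38 without wild-type library 3 (adjusted p = 0.651). Without wild-type library 1 it was -1.46, which passed in edgeR (adjusted p = 0.0493).

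*cdt-1*, whose product brings the helicase ring to CDC-6 and the origin complex, lies on the minus strand of chromosome I (3223160 to 3228104). It had 11.5, 12.3 and 14.4 CPM in the mutant libraries, against 24.4, 12.98 and 33.9 CPM in the wild type. Wild-type library 2 lay inside the mutant range. Its log2 fold change was -0.90 (SE 0.44, 95% interval -1.86 to 0.06, edgeR adjusted p = 0.284), and it was -0.53 without wild-type library 3 (adjusted p = 0.547). Its inhibitor geminin, *gmn-1*, was near the limit of detection and was not tested. *gmn-1* had 4, 4 and 0 counts in mutant libraries 1, 2 and 3, against 14, 1 and 68 counts in the wild type.

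The clamp gene *pcn-1*, on the minus strand of chromosome IV (4047937 to 4049448), was the most abundant of the 10. It had 216.6, 268.7 and 205.2 CPM in the mutant libraries, against 351.1, 471.6 and 325.3 CPM in the wild type. The groups did not overlap. Its log2 fold change was -0.73 (SE 0.27, 95% interval -1.31 to -0.16, edgeR adjusted p = 0.152).

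*rnr-1* (chromosome III, 9225339 to 9228798, minus strand) encodes the catalytic subunit of ribonucleotide reductase, and its promoter is widely used in reporters of S phase. It had 45.4, 77.6 and 48.2 CPM in the mutant libraries, against 116.7, 37.6 and 87.9 CPM in the wild type. Wild-type library 2 was the lowest of all 6 libraries, so the groups overlapped. The fitted log2 fold change of -0.50 had a wide interval (SE 0.41, 95% interval -1.39 to 0.39, edgeR adjusted p = 0.533). It was -0.14 without wild-type library 1 (edgeR adjusted p = 0.862) and -0.85 without wild-type library 2 (0.239). The small subunit gene *rnr-2* had 82.0, 89.7 and 76.7 CPM in the mutant libraries, against 127.9, 145.6 and 134.1 CPM in the wild type. These groups lay apart (log2 fold change -0.72, SE 0.27, edgeR adjusted p = 0.161).

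Levels per gene length were ordered alike at the top and the bottom in both genotypes. In CPM per kilobase, *pcn-1* averaged 229.9 ± 33.8 in the mutant and 382.3 ± 78.0 in the wild type. *mcm-7* came next, at 44.3 ± 4.27 in the mutant and 128.8 ± 48.9 in the wild type, and then *mcm-3*, at 24.5 ± 3.58 in the mutant and 49.3 ± 1.94 in the wild type. *cdt-1* was the least abundant, at 4.94 ± 0.582 in the mutant and 9.22 ± 4.06 in the wild type (SD, n = 3 each). Within each genotype, *pcn-1*, *mcm-7* and *mcm-3* did not overlap each other, and *cdt-1* did not overlap the gene next above it, *mcm-4*.

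Between *mcm-3* and *mcm-4*, each gene overlapped its neighbour in the order. In the mutant these were *rnr-1*, *mcm-2*, *cdc-6*, *mcm-6*, *mcm-5* and *mcm-4*, with means between 22.05 and 11.4 CPM per kilobase. In the wild type they were *cdc-6*, *mcm-2*, *rnr-1*, *mcm-6*, *mcm-5* and *mcm-4*, with means between 34.8 and 20.5. Among all tested genes, the level of *mcm-7* per kilobase stood at percentile 86.1 in the mutant and 95.1 in the wild type, and that of *cdt-1* at percentile 38.8 in the mutant and 52.4 in the wild type.

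The lowest count of any of the 10 genes in a library was 294 and the highest 12861, for which counting error alone gives an SD of 5.83% and 0.882%. The SD between libraries was 9.64% to 35.7% of the mean in the mutant and 3.92% to 69.0% in the wild type.

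The other genes of the pathway were mostly lower in the mutant as well, but 1 of the 55 tested passed. Over all tested genes 0.847% were called lower, and 1 of 55 is a count too small to set against that share. Of 60 symbols in 8 lists, 56 matched the count table and 55 were tested. Negative log2 fold changes were seen in 47 of the 55, against 51.3% of all tested genes, and the median was -0.72. The mutant libraries lay wholly below the wild-type libraries in 23 of the 55, against the 12% given above. The gene that passed was *lin-35*, the retinoblastoma-related repressor that acts with E2F on cell cycle genes. It fell to 32.3, 26.8 and 35.3 CPM in the mutant libraries, against 105.4, 106.9 and 112.2 CPM in the wild type (log2 fold change -1.78, SE 0.29, adjusted p = 0.0139 in edgeR). The *lin-35* call was lost without any 1 mutant library (edgeR adjusted p = 0.103, 0.0935 and 0.073) and with library totals (0.0551). Its log2 fold change without mutant library 1, 2 and 3 was -1.79, -1.65 and -1.87.

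All 5 origin recognition genes had negative log2 fold changes, with a median of -1.14 and none called. *orc-1* averaged 9.57 ± 2.61 CPM in the mutant and 23.7 ± 9.49 CPM in the wild type (SD, n = 3 each; edgeR adjusted p = 0.136). *orc-2* had 74.3, 32.5 and 26.4 CPM in the mutant libraries, against 63.6, 99.5 and 118.6 CPM in the wild type, so that mutant library 1 overlapped the wild type (edgeR adjusted p = 0.176). In 4 of the 5, all but *orc-2*, every mutant value lay below every wild-type value, as 12% of all tested genes did. The log2 fold changes of *orc-3*, *orc-4* and *orc-5* were -0.84, -1.24 and -1.14. The last 2 were weakly expressed, at 2.31 to 4.33 CPM in the mutant libraries and 6.25 to 9.56 CPM in the wild-type libraries.

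Genes that control licensing had a median log2 fold change of -0.76 over 8 tested, 6 of them negative and none called. *ddb-1* and *cdt-2* encode parts of the CUL-4 ubiquitin ligase that degrades CDT-1. *ddb-1*, its adaptor, averaged 35.1 ± 13.2 CPM in the mutant and 81.5 ± 10.2 CPM in the wild type (edgeR adjusted p = 0.0833). *cdt-2*, its substrate receptor, averaged 25.8 ± 2.89 CPM in the mutant and 53.8 ± 25.6 CPM in the wild type (SD, n = 3 each; edgeR adjusted p = 0.152). Cyclin E, *cye-1*, averaged 12.8 ± 9.86 CPM in the mutant and 27.04 ± 5.47 CPM in the wild type, and mutant library 1, at 24.1 CPM, overlapped the wild type. The 2 positive values were those of *lin-23*, an F-box protein that limits cell division (0.59), and of the CDK inhibitor *cki-1* (1.48). Both genes overlapped between the groups, and their adjusted p in edgeR was 0.373 and 0.353.

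Of 11 tested genes for assembly of the active helicase and origin firing, 8 had negative log2 fold changes (median -0.71, none called). *sld-2*, a firing factor, had 1.83, 5.44 and 5.33 CPM in the mutant libraries, against 9.61, 23.3 and 18.2 CPM in the wild type (log2 fold change -2.02, SE 0.59, edgeR adjusted p = 0.0872). *tim-1*, the Timeless homologue of the replication fork, averaged 14.2 ± 4.58 CPM in the mutant and 37.2 ± 6.03 CPM in the wild type (edgeR adjusted p = 0.0768). *mus-101*, the TOPBP1 homologue, averaged 11.1 ± 2.44 CPM in the mutant and 25.4 ± 2.33 CPM in the wild type (SD, n = 3 each; edgeR adjusted p = 0.126). The positive values belonged to *sld-5* (0.28), *mcm-10* (0.38) and *psf-3* (1.92). *psf-3* and *sld-5* encode subunits of GINS, which binds the MCM ring. The GINS genes *psf-1* and *psf-2* went the other way, at -2.39 and -0.71 with overlapping groups (edgeR adjusted p = 0.268 and 0.693). *psf-3* had 2.38, 6.35 and 2.55 CPM in the mutant libraries, against 0.913, 1.247 and 0.803 CPM in the wild type (edgeR adjusted p = 0.253). Its mutant values all lay above its wild-type values, as they did for 1936 of the 13460 tested genes.

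The 8 polymerase and primase genes had a median log2 fold change of -0.60 and the 7 clamp loader and single-strand binding genes one of -0.72, with none called in either. *pole-2*, a subunit of polymerase epsilon, had 46.1, 41.0 and 72.2 CPM in the mutant libraries, against 85.9, 109.7 and 210.8 CPM in the wild type (log2 fold change -1.35, SE 0.38, adjusted p = 0.0799 in edgeR). The catalytic subunits of polymerases delta and epsilon, *pold-1* and *pole-1*, both had log2 fold changes of -0.62. *rpa-1*, the large subunit of the single-strand binding complex, averaged 72.8 ± 6.38 CPM in the mutant and 121.6 ± 9.26 CPM in the wild type (SD, n = 3 each; edgeR adjusted p = 0.156). *rfc-1*, the large clamp loader subunit, was the 1 gene of its list with a positive value (0.08, SE 0.33), at 39.2 ± 8.93 CPM in the mutant and 37.1 ± 1.89 CPM in the wild type. *ctf-18* and *rfc-4*, also of clamp loaders, stood at -0.72 and -0.79.

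The 5 genes of Okazaki fragment maturation and topoisomerases were all negative (median -0.90, none called). Topoisomerase II, *top-2*, averaged 104.7 ± 10.0 CPM in the mutant and 202.5 ± 34.2 CPM in the wild type (SD, n = 3 each; edgeR adjusted p = 0.0803). The ligase *lig-1* and the RNase H gene *rnh-2* had log2 fold changes of -0.90 and -1.24 and overlapped between the groups. The 4 further genes of nucleotide supply had every mutant value below every wild-type value, as 12% of all tested genes did (median -1.24, none called). Among them, *dut-1*, a dUTPase, averaged 18.8 ± 4.41 CPM in the mutant and 45.4 ± 23.6 CPM in the wild type. *tyms-1*, thymidylate synthase, averaged 3.62 ± 0.605 CPM in the mutant and 12.2 ± 6.74 CPM in the wild type (SD, n = 3 each). Of the 7 E2F and Rb regulators, 5 were negative (median -0.46). The E2F gene *efl-1* stood at -0.78 and the Rb-binding protein gene *lin-53* at -0.55, while *efl-2* (0.28) and *cdk-4* (0.20) were positive.

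**Figure D4:**
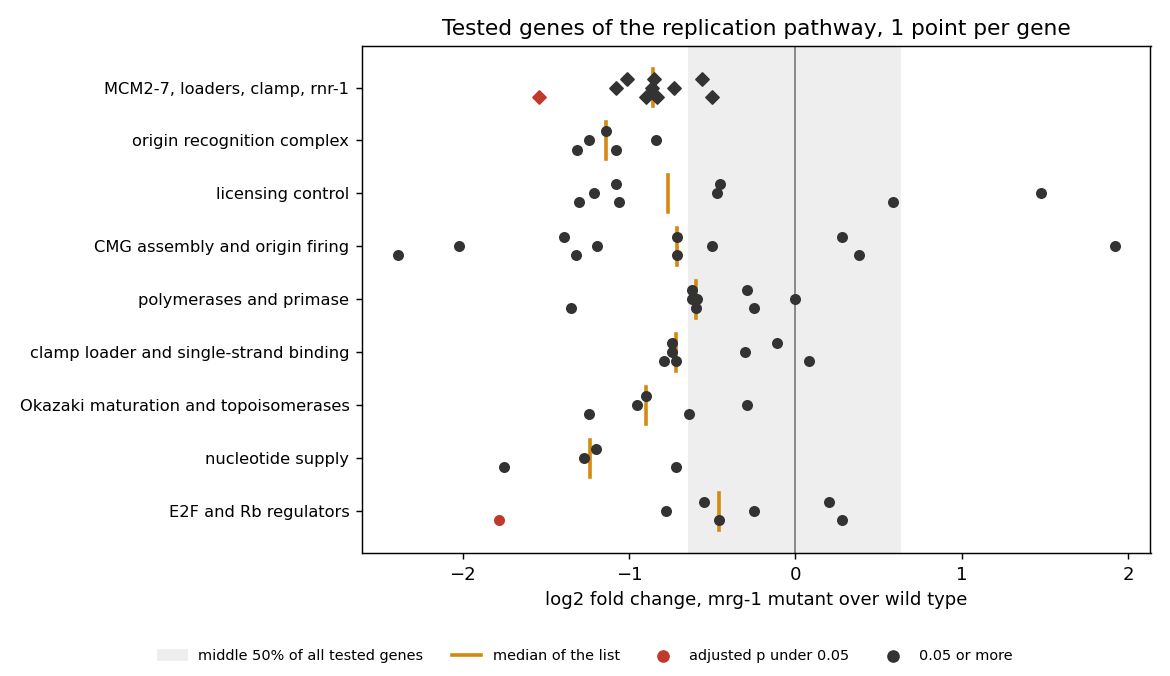
Log2 fold change, mutant over wild type (x axis), of each tested gene in 8 pathway lists. The 10 genes described here are diamonds in the top row, list medians are orange and the middle 50% of all tested genes is grey. *mcm-7* and *lin-35* (red) passed the test, and the medians of all rows lie below 0.

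Markers of the cell types in a larva did not move one way. Of 7 tested germ cell markers 4 had negative log2 fold changes (median -0.52), with summed levels of 40.4 to 56.0 CPM in the mutant and 39.1 to 79.7 CPM in the wild type, and none was called. In that list *nos-2* had no count in mutant libraries 1 and 2 or wild-type library 2. All 5 tested epidermis and seam markers were lower (median -0.59, none called), at 326.7 to 333.3 CPM in the mutant and 396.3 to 589.4 CPM in the wild type. In that list *nhr-73* had no count in any library. All 8 body wall muscle markers were higher (median 0.72, none called), at 12877.7 to 15952.4 CPM in the mutant and 6918.1 to 10958.7 CPM in the wild type. Of 8 neuron markers 7 were higher (median 0.55, none called), at 2903.0 to 3684.3 CPM in the mutant and 2344.3 to 2597.2 CPM in the wild type. Of 7 intestine markers 6 were higher (median 0.66), at 2375.3 to 3800.4 CPM in the mutant and 1395.1 to 4109.9 CPM in the wild type, and 1, the acid phosphatase *pho-1*, was called lower (log2 fold change -1.43, edgeR adjusted p = 0.0201). The *pho-1* call was lost without any 1 mutant library (edgeR adjusted p = 0.0968, 0.127 and 0.143) or without wild-type library 2 (0.0646), with library totals (0.105) and in limma on the deposited log2 values (0.0691). The part of these markers in the results for the genes described here was not tested.

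The 5 genes whose profile was most like the mean of the 6 MCM genes were looked up among 8866 other tested genes with a mean of at least 5 CPM. Likeness was the root mean square difference of log2 CPM, each gene centred on its own mean over the 6 libraries. The same libraries were used for the choice, so fold changes near those of the MCM genes follow from it and are description only. The closest was *inf-1*, the translation initiation factor eIF4A, at 0.0955. It had 1249, 1269 and 1037 CPM in mutant libraries 1, 2 and 3, against 2143, 2273 and 2917 CPM in the wild type. The log2 fold change of *inf-1* was -1.04 (SE 0.25, edgeR adjusted p = 0.0495), a call that was lost without any 1 library other than wild-type library 1 (edgeR adjusted p = 0.0694 to 0.247). It was also lost with median ratio size factors (edgeR adjusted p = 0.0515), the replicate block (0.0636), library totals (0.244), limma on the deposited log2 values (0.218) and wild-type library 1 as the only wild-type library (0.0967). Next came *eif-3.L*, a subunit of initiation factor eIF3 (0.106), *mtm-5*, of the myotubularin family (0.116), the condensin subunit gene *capg-1* (0.119) and *rga-1* (0.124). The MCM genes themselves lay 0.126 (*mcm-4*) to 0.378 (*mcm-7*) from their own mean, *pcn-1* at 0.271, *cdt-1* at 0.4, *cdc-6* at 0.522 and *rnr-1* at 0.592.

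**Figure D5:**
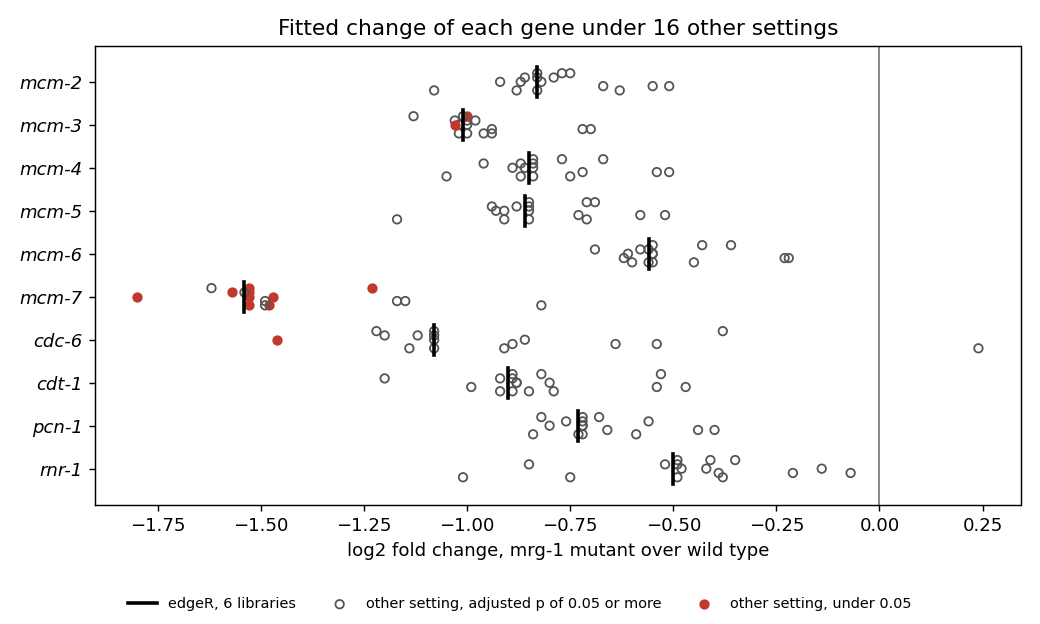
Log2 fold change, mutant over wild type (x axis), of each of the 10 genes in the edgeR fit of all 6 libraries (black bar) and under 16 other settings (circles, filled red where the adjusted p is under 0.05). All values are negative except 1 of *cdc-6*, at 0.24 with wild-type library 1 as the only wild-type library.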

How the data were processed

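The authors deposited raw counts per gene with a gene length in bases, and normalized log2 values, for 3 mutant and 3 wild-type libraries. Checked against the counts, a deposited log2 value is log2 of 8 plus the count scaled to a total of 24838462. Libraries were made from 2 ng of total RNA with NuGEN Ovation and Illumina TruSeq kits, per the labels' protocols. Reads were placed on ce10 according to the submitters' processing notes. The strand setting, aligner and counter are not given in the sources. Overlapping genes are therefore uncertain. Positions are those of Ensembl release 115 (WBcel235), looked up by gene ID and not converted. No per-sample column lacked a sample (0 unmapped), and the series' design text calls the libraries biological replicas.

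The deposited counts were fitted with edgeR 4.0.16 under R 4.3.3: TMM factors, default filter and a quasi-likelihood F test between the groups with no covariate. P values were adjusted over 13460 genes by Benjamini-Hochberg, with a threshold of 0.05. SEs are the log2 fold change divided by the square root of F. The fit was tested on simulated data. Pathway and marker lists were written from textbook knowledge. Members and lists were chosen with earlier results of these data known. Named are the 10 members, *mrg-1*, called pathway genes, up to 3 per list with the smallest p, the 5 genes of most similar profile and, where 5 or fewer genes are counted, those genes. Alternatives used DESeq2 1.42.0, limma 3.58.1, other scalings and filters, and each library left out. Figures were drawn with matplotlib 3.10.9.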

Additional observations from a re-analysis of the deposited data

How the results depend on the processing

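Over 16 alternatives for each of the 10 genes, 159 of 160 log2 fold changes were negative and 149 kept their side of the threshold. Most of these 149 belong to genes that were not called and stayed so. *mcm-7*, the 1 gene called, kept its call in 9 of its 16 alternatives. The exception in sign was *cdc-6*, at 0.24 with wild-type library 1 as the only wild-type library, a setting chosen after seeing the data. The adjusted p of *mcm-7* ran from 0.00126 (DESeq2) to 0.186. In addition to the losses given above, *mcm-7* missed the threshold with library totals (edgeR adjusted p = 0.081) and in limma on the deposited log2 values (0.0539). Under these scalings the median log2 fold change over all tested genes was 0.27 and 0.35, against -0.03 with TMM. The median of the 10 genes lay 0.79 and 0.89 below those medians, and 0.83 below with TMM.

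The number of the 10 genes called lower, 1 with TMM in edgeR, was 0 with library totals, 2 in DESeq2, 0 with wild-type library 1 alone, and 0 to 3 when a library was left out. Of the 55 pathway genes, 1 was called lower, against 0.847% of all tested genes. The count was 0 with library totals (0.0817% of all), 2 without a filter (300 of 18694 over all) and 10 in DESeq2 (4.71% of all). It was 2 with the replicate block (141 of 13460 over all) and 0 to 4 when a library was left out (0 to 484 over all). The 10 in DESeq2 were *lin-35*, *tim-1*, *sld-2*, *mus-101*, *top-2*, *ddb-1*, *pole-2*, *tyms-1*, *orc-1* and *dut-1*. Over all genes 350 were called, against 215 with library totals, 734 without a filter, 1534 in DESeq2 and 35 to 1043 when a library was left out. Of all calls 32.6% were lower, against 5.12% with library totals, 6.61% on the deposited values and 44.9% in DESeq2.

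Same-numbered libraries deviated from their group means with correlations of -0.005, 0.043 and 0.093, and differently numbered ones with -0.081 to 0.046. With 3 libraries a group, these values cannot show whether libraries were paired. With the replicate block 1 of the 10 genes was called, *mcm-7* (edgeR adjusted p = 0.0253). When a library was left out, the difference in MCM share ran from -14.8 to -6.91 points for *mcm-7* and from 2.78 to 5.18 points for *mcm-6*. That of *mcm-3* changed sign when mutant library 1 or wild-type library 3 was left out. Counting error was small for these genes, and the spread between 3 libraries a group limits precision.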

Other observations

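Several licensing genes lie close to other genes in the WBcel235 annotation. Counts of neighbours within 500 bases were therefore read beside them. The exons of *mcm-3* share 73 bases with *C25D7.16* on the other strand, which had 0, 1 and 7 counts in mutant libraries 1, 2 and 3, against 10, 2 and 0 counts in the wild type. Those of *mcm-7* share 18 bases with *F32D1.3*, which had 23.2, 32.2 and 19.0 CPM in the mutant libraries, against 15.8, 24.1 and 23.5 CPM in the wild type (log2 fold change 0.23, SE 0.39, edgeR adjusted p = 0.781). Same-strand neighbours of 2 MCM genes had every mutant value below every wild-type value, as 12% of all tested genes did, without being called. *nth-1*, a DNA repair glycosylase gene 276 bases from *mcm-5*, had 0, 3.13 and 1.46 CPM in the mutant libraries, against 3.60, 8.29 and 9.24 CPM in the wild type (edgeR adjusted p = 0.318). *ZK632.2*, 462 bases from *mcm-6*, had 25.8, 27.1 and 34.8 CPM in the mutant libraries, against 43.5, 49.9 and 49.3 CPM in the wild type (edgeR adjusted p = 0.254). On the other strand, *nssp-71*, 208 bases from *mcm-3*, had every mutant value above every wild-type value, as 1936 of the 13460 tested genes did. It had 1.52, 3.13 and 1.92 CPM in the mutant libraries, against 1.01, 0.44 and 0.584 CPM in the wild type (log2 fold change 1.69, SE 0.98, edgeR adjusted p = 0.366).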
